A study of Mus musculus with 6 samples.

Results

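The leukocyte integrins described here are 10 genes, Itgae, Itgal, Itgb7, Itgam, Itgax, Itga4, Itgb2, Itga1, Itgb1 and Itgb3, taken by their symbols from a table of 21965 mouse genes. Each symbol had 1 row. The RNA came from material labelled lung tissue, with 3 libraries named Aa-flox and 3 named Aa-cko. What Aa stands for is not said, and neither the deleted gene nor a Cre driver, strain, age or treatment is given. Nothing says that the replicates were separate animals, so a p-value here covers only how far these libraries vary, possibly for technical reasons.

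Integrins are adhesion receptors made of an alpha and a beta chain, and a chain generally reaches the cell surface only with a partner. Leukocytes use them to stop on vessel walls, to enter tissue and to stay there, and the alpha chain largely sets the ligand. Itgal, Itgam and Itgax share the beta chain of Itgb2, Itgae and Itga4 can pair with that of Itgb7, Itga4 and Itga1 pair with that of Itgb1, and the Itgb3 chain pairs with those of Itgav and Itga2b. Itgae, Itgal and Itgb7 were read as lymphoid chains and Itgam and Itgax as myeloid chains, although many leukocytes of both kinds carry Itgal.

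Values are FPKM, fragment counts scaled for gene length and library depth, so that levels of different genes can be set side by side. The spacing of low values placed the depth at about 14100000 to 17400000 fragments per library, and the columns summed to between 513648 and 607447 FPKM. No library stood apart, with Pearson correlations of log2(FPKM + 1) from 0.992 to 0.996 within a group and from 0.976 to 0.986 between groups. Stk11, the gene of LKB1, is not named by any label as the deleted gene. It read 64.1, 55.8 and 51.8 FPKM in Aa-flox and 62.7, 61.7 and 53.7 in Aa-cko, with overlapping groups. A whole-gene value does not show the loss of single exons or loss in a few cells. Of the epithelial genes, Sftpc, the surfactant protein C gene of alveolar cells, lay between 2.23 and 4.59 FPKM in the 6 libraries and Scgb1a1, the club cell secretory gene, between 111 and 167. Ptprc, the pan-leukocyte antigen CD45, lay between 167 and 338 FPKM. Groups are therefore named by their labels.

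All 10 chains had a higher mean in Aa-cko, and 6 of them rose past the test. Differences were tested with limma on log2(FPKM + 1) over 10849 genes, and a gene under an adjusted p of 0.05 is called higher or lower. Of the 10 chains 9 were tested, each with at least 1 FPKM in all 6 libraries, and Itga1 lay below the filter. Itgae, Itgb7, Itgam, Itgax, Itgb2 and Itgb3 were called higher, against 19.2% of all tested genes called higher and 42.4% called in either direction. The other 3, Itgal, Itga4 and Itgb1, did not pass. The limma test called 0 chains lower, against 23.2% of all tested genes called lower, both at an adjusted p under 0.05. At an unadjusted p under 0.05, 7 chains were higher and 0 lower. The share of all tested genes at that unadjusted threshold is not given here. The median log2 fold change of the 9 chains was 0.59, beside -0.05 over all tested genes.

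**Figure D1:**
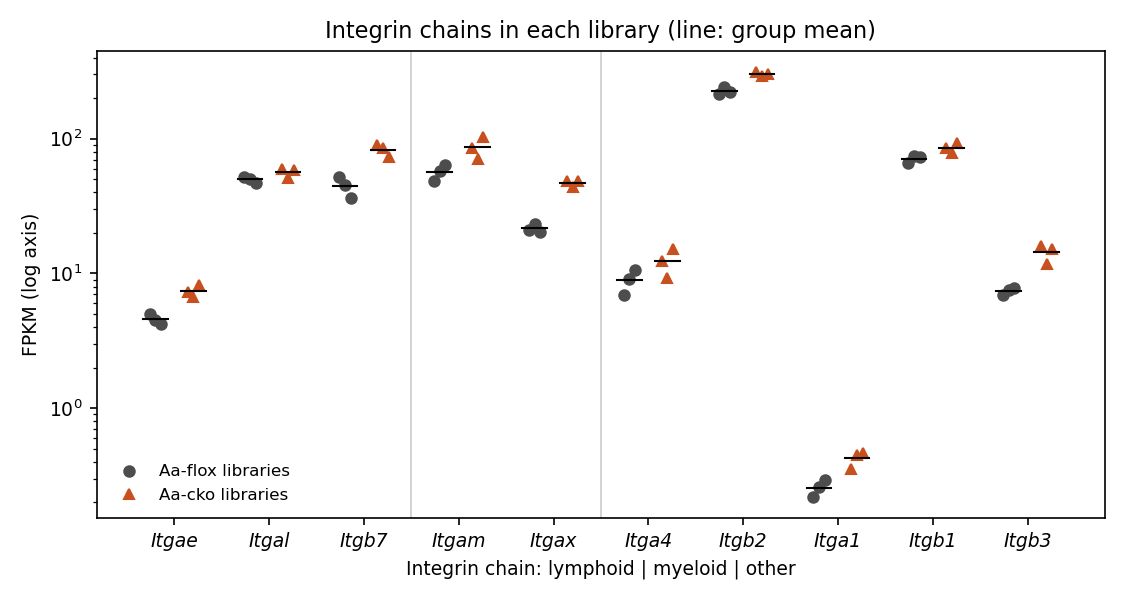
FPKM of the 10 integrin chains on a log axis, with 1 point per library (grey circles Aa-flox, orange triangles Aa-cko) and a line at each group's mean. Itgb2 was the most abundant chain in both groups, Itga1 stayed under 0.5 FPKM, and Itgax lay at 20.5 to 23.4 in Aa-flox against 44.2 to 48.8 in Aa-cko.

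The sequences upstream of 3 of the chains that rose are shown because these chains, of both lineages, rose in the same comparison. They are the 250 bases before the RefSeq start (GRCm38.p6, the assembly also called mm10), with capitals marking the letters GAGGAA on either strand, the core bound by the myeloid factor PU.1.
Itgam (chr7:128062390-128062639, plus strand): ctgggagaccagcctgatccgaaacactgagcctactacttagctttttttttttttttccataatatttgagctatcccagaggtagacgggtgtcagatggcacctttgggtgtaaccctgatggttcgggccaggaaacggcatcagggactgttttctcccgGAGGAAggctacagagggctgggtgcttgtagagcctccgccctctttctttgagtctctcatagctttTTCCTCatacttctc
Itgax (chr7:128129300-128129549, plus strand): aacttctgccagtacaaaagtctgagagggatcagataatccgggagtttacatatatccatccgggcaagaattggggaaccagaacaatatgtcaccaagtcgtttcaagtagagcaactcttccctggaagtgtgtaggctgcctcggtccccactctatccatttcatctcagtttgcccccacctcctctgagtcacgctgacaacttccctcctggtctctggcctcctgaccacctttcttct
Itgb7 (chr15:102231936-102232185, minus strand): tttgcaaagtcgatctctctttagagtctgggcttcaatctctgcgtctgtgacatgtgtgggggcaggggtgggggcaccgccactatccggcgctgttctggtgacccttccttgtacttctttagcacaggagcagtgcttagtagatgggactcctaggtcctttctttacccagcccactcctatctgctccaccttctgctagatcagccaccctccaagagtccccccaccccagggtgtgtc

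In a window from 250 bases before to 50 after the start, Itgam held GAGGAA at 3 places on either strand, starting at -84, -15 and 33, and Itgb7 held it once, starting at 3. Itgax held TGTGGT, a sequence bound by RUNX factors, starting at 14, and no GAGGAA. Among 32851 mouse promoters of RefSeq, 28.3% held GAGGAA and 16.8% held TGTGGT on either strand, and of the 6 chains with a promoter there (Itgb7, Itga4, Itgam, Itgax, Itga1 and Itgb1) 3 held the former and 2 the latter. A match is only a run of letters. Itgae, Itgal, Itgb2 and Itgb3 were not matched.

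Itgae encodes CD103, the alpha chain that binds E-cadherin on epithelium and marks resident T cells and a subset of dendritic cells. It lies on chromosome 11 from 73090583 to 73147446 (plus strand, mm10, ENSMUSG00000005947). It read 4.99, 4.53 and 4.21 FPKM in Aa-flox and 7.33, 6.74 and 8.22 in Aa-cko. Each Aa-cko library lay above each Aa-flox library. The mean rose from 4.58 ± 0.394 to 7.43 ± 0.742 FPKM (SD, n = 3 each), a log2 fold change of 0.59 ± 0.13 (SE) with limma adjusted p = 0.00503.

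Itgb7, the beta chain that pairs with Itgae for retention in epithelium and with Itga4 for homing to the gut, lies on chromosome 15 from 102215995 to 102231944 (minus strand, ENSMUSG00000001281). It read 52.3, 45.6 and 36.6 FPKM in Aa-flox and 89.1, 84.9 and 72.9 in Aa-cko. Again the groups did not overlap. Its mean rose from 44.8 ± 7.89 to 82.3 ± 8.43 FPKM (log2 0.87 ± 0.14, limma adjusted p = 0.00105).

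Itgal, the alpha chain of LFA-1, which binds ICAM ligands and steadies contacts of T cells with other cells, lies on chromosome 7 from 127296260 to 127335138 (plus strand, ENSMUSG00000030830). It read 52.3, 50.3 and 47.2 FPKM in Aa-flox and 59.8, 51.4 and 58.4 in Aa-cko. The lowest Aa-cko library lay below the highest Aa-flox library. The difference did not pass (log2 0.17 ± 0.10, 95% interval from -0.05 to 0.40, limma adjusted p = 0.185). The 3 lymphoid chains thus fell on different sides of the threshold, with Itgae and Itgb7 higher and Itgal not past.

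The myeloid chains both rose. Itgax, the alpha chain CD11c of alveolar macrophages and dendritic cells, lies on chromosome 7 from 128129547 to 128150657 (plus strand, ENSMUSG00000030789). It read 21.0, 23.4 and 20.5 FPKM in Aa-flox and 48.4, 44.2 and 48.8 in Aa-cko. The lowest Aa-cko library stood well above the highest Aa-flox library. With a log2 fold change of 1.09 ± 0.10 (means 21.7 ± 1.57 and 47.1 ± 2.59 FPKM, n = 3 each, limma adjusted p = 7.3e-05), Itgax had the largest rise of the 9 tested chains and ranked 172 of 10849 genes by fold change.

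Itgam, the alpha chain CD11b of neutrophils, monocytes and interstitial macrophages, which also binds a complement fragment, lies on chromosome 7 from 128062640 to 128118491 (plus strand, ENSMUSG00000030786), 11.1 kb before Itgax. It read 48.6, 58.1 and 64.3 FPKM in Aa-flox and 85.2, 70.8 and 104 in Aa-cko. The groups did not overlap, but both were spread more widely than those of Itgax. The rise was 0.59 ± 0.15 on the log2 scale (means 57.0 ± 7.92 and 86.5 ± 16.4 FPKM, limma adjusted p = 0.0114). This call ended when the columns were rescaled to equal sums (adjusted p = 0.0554, range over 16 alternatives 0.000958 to 0.0554). An overlapping gene model on the same strand, Gm49368, shares 3450 exonic bases with Itgam in GENCODE M21, so fragments could be assigned to either. Gm49368 read 3.63 to 4.22 FPKM in Aa-flox and 5.27 to 9.75 in Aa-cko, also higher in each Aa-cko library. Itgad, the next gene of the cluster after Itgax and a further partner of Itgb2, stayed between 0.112 and 0.267 FPKM.

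Itgb2, the beta chain CD18 common to Itgal, Itgam and Itgax, was the most abundant of the 10. It lies on chromosome 10 from 77530252 to 77565708 (plus strand, ENSMUSG00000000290) and read 215, 244 and 223 FPKM in Aa-flox and 313, 290 and 300.1 in Aa-cko. All 3 Aa-cko libraries lay above the Aa-flox libraries. It rose by log2 0.41 ± 0.10 (limma adjusted p = 0.00885), a value between those of Itgal and Itgax. Without Aa-cko replicate 1 the call ended narrowly (adjusted p = 0.0512, range over 16 alternatives 0.0029 to 0.0512).

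Itga4 and Itgb1, the chains of VLA-4, which binds VCAM-1 and fibronectin, were higher on average without passing. Itga4 (chromosome 2, 79255426 to 79333123, plus strand, ENSMUSG00000027009) read 6.89, 9.13 and 10.6 FPKM in Aa-flox and 12.4, 9.23 and 15.3 in Aa-cko. The groups overlapped, and Aa-cko replicate 2 sat among the Aa-flox values (log2 0.42 ± 0.19, 95% interval from -0.01 to 0.85, limma adjusted p = 0.104). Itgb1, the beta chain shared by many adhesion receptors of the matrix (chromosome 8, 128685654 to 128733200, plus strand, ENSMUSG00000025809), read 65.7, 73.9 and 73.4 FPKM in Aa-flox and 85.7, 78.3 and 92.3 in Aa-cko. Its groups did not overlap, yet the difference of log2 0.26 ± 0.10 had limma adjusted p = 0.0613. Without Aa-cko replicate 2 both passed, with adjusted p = 0.0204 for Itga4 and 0.0306 for Itgb1, and over 16 alternatives their adjusted p ran from 0.0204 to 0.319 and from 0.0171 to 0.296.

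Itgb3, the beta chain of the vitronectin and platelet fibrinogen receptors, also rose. It lies on chromosome 11 from 104608000 to 104670476 (plus strand, ENSMUSG00000020689) and read 6.98, 7.55 and 7.77 FPKM in Aa-flox and 16.0, 11.7 and 15.2 in Aa-cko. Each Aa-cko library exceeded each Aa-flox library. The log2 fold change was 0.85 ± 0.14 (means 7.43 ± 0.407 and 14.3 ± 2.29 FPKM, limma adjusted p = 0.00115). Of its partners, Itgav read 24.9, 31.3 and 33.0 FPKM in Aa-flox and 23.7, 21.4 and 33.0 in Aa-cko, which was not past the test. Itga2b, the platelet partner, read 0.299 to 0.413 FPKM in Aa-flox and 0.461 to 0.637 in Aa-cko, below the filter. Of 11 platelet markers 8 lay below the filter and 3 did not pass, with a summed level of 18.6 to 27.4 FPKM in Aa-flox and 27.7 to 40.8 in Aa-cko, mostly of Pf4, a platelet chemokine gene. The part of platelets in the rise of Itgb3 was not tested.

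Itga1, the alpha chain CD49a of a collagen receptor found on resident lymphocytes, was scarce. It lies on chromosome 13 from 114953096 to 115101964 (minus strand, ENSMUSG00000042284) and read 0.221, 0.259 and 0.291 FPKM in Aa-flox and 0.357, 0.453 and 0.467 in Aa-cko, which at the inferred depths corresponds to roughly 66.2 to 142 fragments per library. The groups did not overlap. In a fit with no filter on low values its log2 fold change was 0.18 ± 0.07 (limma adjusted p = 0.0997), a scale on which the pseudocount of 1 dominates at this level. Another gene model of the same strand, Gm49395, shares 685 exonic bases with it.

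Of the 9 tested chains, the groups did not overlap for 7, with Aa-cko above. Over all tested genes 23.8% were separated in that direction and 29.6% in the other.

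**Figure D2:**
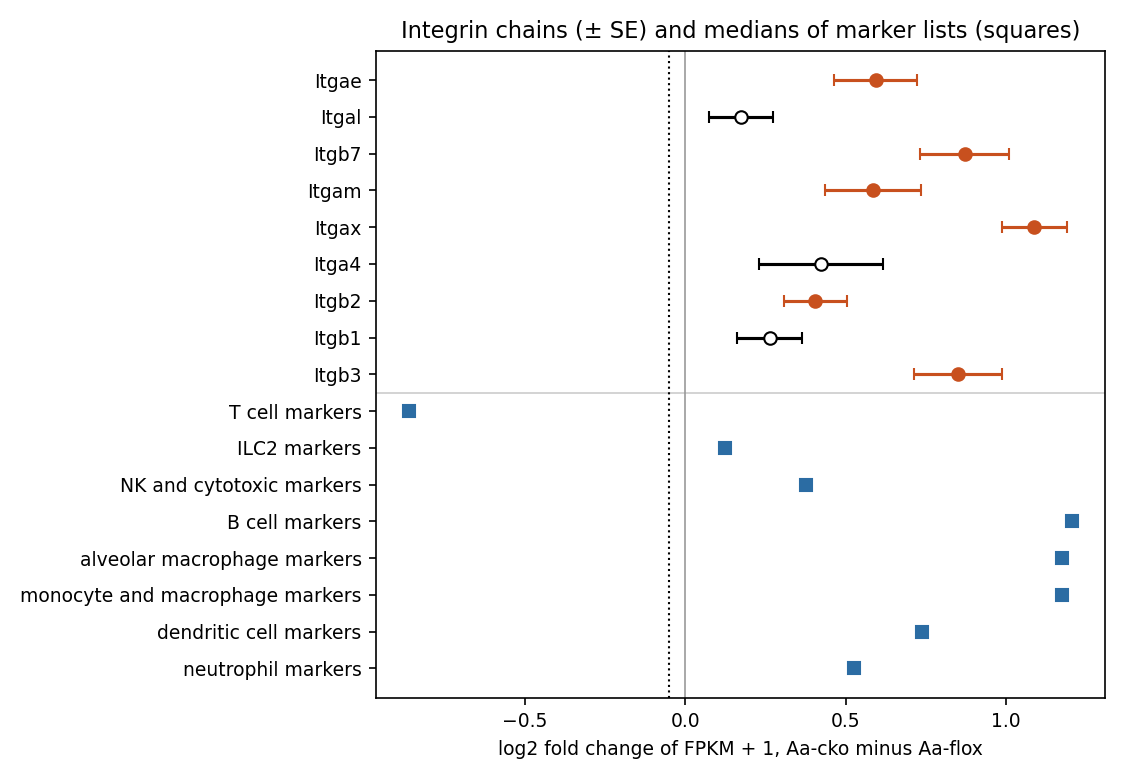
Log2 fold change of FPKM + 1, Aa-cko minus Aa-flox, of the 9 tested chains with standard errors (filled where called, open where not), above the medians of marker lists of 8 leukocyte types (squares), with a dotted line at the median of all tested genes. The chains run from 0.17 for Itgal to 1.09 for Itgax, while the T cell markers sit at -0.86 and the alveolar macrophage markers at 1.17.

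The order of levels shifted in the middle. In Aa-flox it ran Itgb2, Itgb1, Itgam, Itgal, Itgb7, Itgax, Itga4, Itgb3, Itgae and Itga1, and neighbours overlapped for Itgam with Itgal, Itgal with Itgb7, and Itga4 with Itgb3. In Aa-cko it ran Itgb2, Itgam, Itgb1, Itgb7, Itgal, Itgax, Itgb3, Itga4, Itgae and Itga1, and neighbours overlapped for Itgam with Itgb1, Itgb1 with Itgb7, and Itgb3 with Itga4. Itgb7 and Itgal, which overlapped in Aa-flox at 44.8 and 49.9 FPKM, were separate in Aa-cko at 82.3 and 56.5.

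Set against each other within a library, the lymphoid chains Itgal and Itgae were lower relative to Itgax in each Aa-cko library than in any Aa-flox library. Such ratios do not depend on how libraries are scaled. Itgal stood at 2.49, 2.15 and 2.30 times Itgax in Aa-flox and at 1.23, 1.16 and 1.20 times in Aa-cko, with no overlap (log2 difference -0.95). The Itgae to Itgax ratio was 0.237, 0.193 and 0.206 in Aa-flox and 0.151, 0.153 and 0.168 in Aa-cko, also without overlap (log2 difference -0.43). The Itgal to Itgam ratio was 1.08, 0.867 and 0.733 in Aa-flox and 0.702, 0.726 and 0.564 in Aa-cko, where the groups only just parted (log2 difference -0.42). The Itgb7 to Itgam ratio was higher in Aa-cko on average, at 1.08, 0.786 and 0.569 against 1.05, 1.20 and 0.704, with wide overlap (log2 difference 0.29). Over the 11 ratios computed, the exact two-sided permutation test gave p = 0.1 for each that separated the groups, the smallest p that 3 against 3 allows, and 0.183 after Benjamini-Hochberg adjustment. For Itgb7 to Itgam the exact p was 0.6. The Itgb7 to Itgax ratio, added after the values were seen and not tested, was 2.49, 1.95 and 1.79 in Aa-flox and 1.84, 1.92 and 1.49 in Aa-cko, which overlapped. All 3 lymphoid chains thus had a lower mean ratio to Itgax in Aa-cko. Itgax ranked 172 of 10849 genes by fold change, so most tested genes would also come out lower relative to it. The Itgae to Itgam ratio was not computed.

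**Figure D3:**
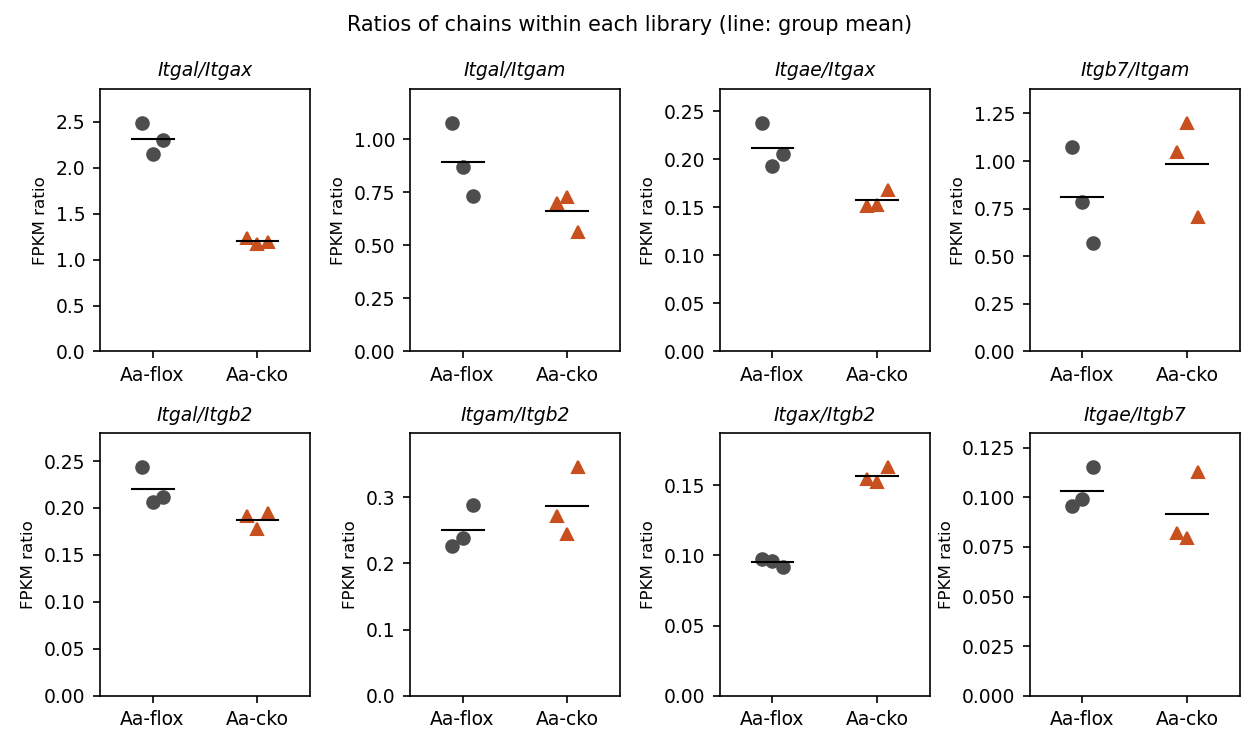
FPKM ratios of chains within each library, from 0 upward, with 1 point per library (grey circles Aa-flox, orange triangles Aa-cko) and a line at each group's mean. The upper row sets lymphoid chains against myeloid ones and the lower row sets alpha chains against their beta partners. Itgal/Itgax averaged 2.31 for Aa-flox against 1.20 for Aa-cko, and Itgax/Itgb2 averaged 0.0953 against 0.157.

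Among the alpha chains that share Itgb2, Itgax took more and Itgal less in each Aa-cko library. Itgax relative to Itgb2 was 0.0978, 0.0962 and 0.0918 in Aa-flox and 0.155, 0.152 and 0.163 in Aa-cko (log2 difference 0.72, exact p = 0.1). Itgal relative to Itgb2 was 0.243, 0.207 and 0.211 in Aa-flox and 0.191, 0.177 and 0.195 in Aa-cko (log2 difference -0.23, exact p = 0.1). Itgam relative to Itgb2 overlapped between the groups (means 0.251 ± 0.033 and 0.287 ± 0.052, exact p = 0.4). Of the summed FPKM of these 3 alpha chains, Itgal held 38.9 ± 3.63% in Aa-flox and 29.8 ± 1.85% in Aa-cko (SD, n = 3 each), and Itgax 16.9 ± 1.18% and 24.9 ± 1.68%. Itgam held 44.2 ± 4.44% and 45.2 ± 3.44%, a difference smaller than the spread. Their sum was 0.567 ± 0.025 times Itgb2 in Aa-flox and 0.631 ± 0.065 times in Aa-cko, so that Itgb2 mRNA exceeded that of its 3 partners in each library.

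**Figure D4:**
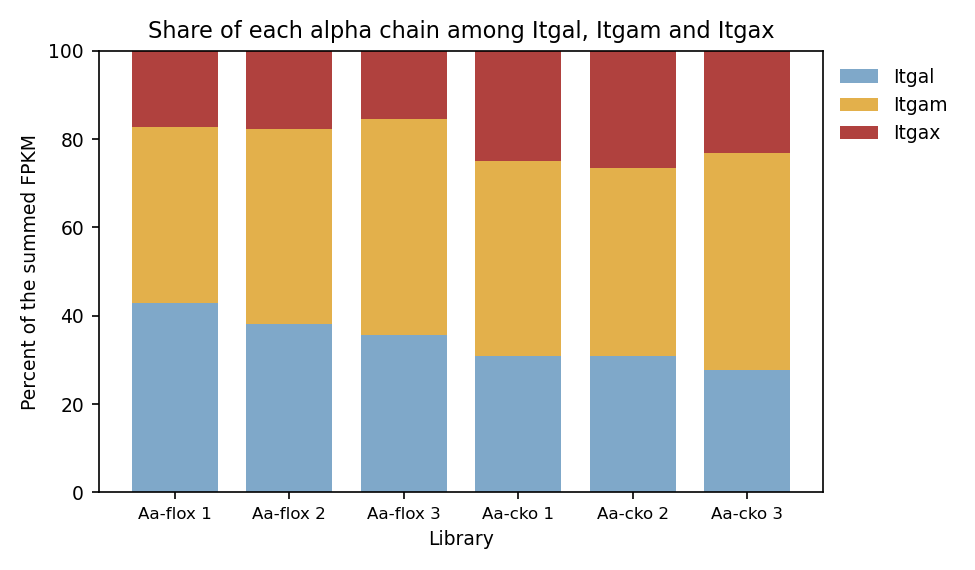
Stacked bars of the percent that Itgal, Itgam and Itgax each hold of their summed FPKM in each library. The Itgax part spans 15.5 to 17.8% in the Aa-flox libraries and 23.2 to 26.5% in the Aa-cko libraries, and the Itgal part 35.7 to 42.9% and 27.7 to 30.9%.

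The ratios of Itgae and Itga4 to their beta chains overlapped between the groups. Itgae was 0.103 ± 0.010 of Itgb7 in Aa-flox and 0.0915 ± 0.018 in Aa-cko (exact p = 0.3), so Itgb7 stood far above Itgae in both groups. Itga4 was 0.207 ± 0.079 and 0.153 ± 0.052 of Itgb7 (exact p = 0.5) and 0.124 ± 0.020 and 0.143 ± 0.024 of Itgb1 (exact p = 0.4). The Itga1 to Itgb1 ratio was 0.00361 ± 0.000314 in Aa-flox and 0.00501 ± 0.000812 in Aa-cko, with no overlap (exact p = 0.1), and its log2 difference turned from 0.46 to -0.08 when 1 FPKM was added to both genes.

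Ptprc did not rise with the integrins. It read 285, 260.1 and 338 FPKM in Aa-flox and 204, 167 and 246 in Aa-cko, lower in each Aa-cko library (log2 -0.53 ± 0.15, limma adjusted p = 0.0201). That call ended without Aa-flox replicate 1 (adjusted p = 0.0505), without Aa-flox replicate 3 (0.0713), without Aa-cko replicate 1 (0.0624) and with no filter on low values (0.0551), within a range over 16 alternatives of 0.000423 to 0.0713. Per 100 FPKM of Ptprc, each of the 10 chains was higher in each Aa-cko library than in any Aa-flox library, as were 46.6% of all tested genes. Itgax ran from 6.05 to 9.01 in Aa-flox and from 19.9 to 26.5 in Aa-cko, and Itgal from 13.9 to 19.4 and from 23.8 to 30.9.

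Markers of cell types that carry these chains moved in both directions in the same libraries. For comparison, 19.2% of all tested genes were called higher and 23.2% lower. T cell markers fell, 12 of 15 with 3 not past, and their summed level went from 2350 to 2716 FPKM in Aa-flox to 1310 to 1468 in Aa-cko. Alveolar macrophage markers rose, 11 of 11 tested, with sums of 2584 to 3026 and 6205 to 8399 FPKM. So did 11 of 11 tested markers of monocytes and macrophages in general (862 to 1063 and 2342 to 3031 FPKM). Of these lists Fabp1 and Cx3cr1 lay below the filter. All 10 B cell markers rose (590 to 656 and 901 to 965 FPKM), as did 8 of 10 neutrophil markers (2869 to 3649 and 3752 to 5416 FPKM). Of 9 tested dendritic cell markers 6 were called higher (900 to 1045 and 1862 to 2325 FPKM), with Clec9a below the filter, but 2 of the 6, Cd209a and Siglech, reached the filter only through Aa-cko. Most of that sum came from the MHC class II genes H2-Aa (means 507 and 1077 FPKM) and H2-Ab1 (353 and 803). Flt3 (limma adjusted p = 0.0857), Zbtb46 (0.799) and Xcr1 (0.147) did not pass. These genes are named after their values were seen. Genes of the dendritic subset that carries CD103 differed: Xcr1 read 4.58, 5.16 and 3.59 FPKM in Aa-flox and 3.63, 3.64 and 3.05 in Aa-cko, not past the test, and Batf3 rose from 1.08, 1.03 and 1.14 to 3.23, 3.40 and 2.66 FPKM (limma adjusted p = 0.000413). Markers of group 2 innate lymphoid cells were split, with 5 of 12 higher and 4 lower (885 to 1012 and 1166 to 1244 FPKM). Without Arg1, which macrophages also express, their sum was 506 to 601 FPKM in Aa-flox and 393 to 454 in Aa-cko, the opposite direction. Arg1 was left out after the values were seen, so the direction of this sum rests on that choice. Those of NK and cytotoxic cells had 5 of 10 higher and 1 lower (394 to 471 and 452 to 480 FPKM). Mast cells can also carry CD103 with Itgb7, and of their 6 tested markers 1 rose and 1 fell (16.0 to 17.1 and 18.0 to 24.5 FPKM), with Fcer1a, Gata2, Ms4a2 and Tpsb2 below the filter. Epithelial markers overlapped between groups in their sum (137 to 170 and 158 to 202 FPKM), with 3 of 10 higher and 1 lower, as did those of stroma and endothelium (31.3 to 37.9 and 33.2 to 37.1 FPKM), with 1 of 7 tested higher. In RNA of mixed cells, fewer cells of a type and less RNA per cell cannot be told apart, and the part of these cell types in the integrin values was not tested.

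The other 16 integrin chains showed no common direction. Of these 7 were tested, 2 rose (28.6%), 2 fell (28.6%) and 3 did not pass, with a median log2 fold change of -0.20. Among all tested genes 19.2% rose and 23.2% fell. Itgb5, a partner of Itgav in vitronectin binding, rose from 5.65, 4.20 and 4.33 to 9.55, 13.9 and 10.2 FPKM (log2 1.08 ± 0.17, limma adjusted p = 0.000854). Itga5, the fibronectin receptor chain, rose from 58.3 ± 7.16 to 76.1 ± 4.33 FPKM (log2 0.39, adjusted p = 0.0203). This call ended without Aa-flox replicate 3 (0.0815) or Aa-cko replicate 1 (0.0795), within a range of 0.00318 to 0.0815. Itga2, a collagen receptor chain counted as lower, read 1.27, 1.62 and 1.78 FPKM in Aa-flox and 0.964, 0.583 and 0.737 in Aa-cko. It reached the filter of 1 FPKM only through Aa-flox, where it was high, so its call (adjusted p = 0.0133) carries no weight, and the number of these chains called lower was 0 without any 1 of the Aa-flox libraries. Itga9 fell from 2.12 ± 0.252 to 1.28 ± 0.496 FPKM (log2 -0.48, adjusted p = 0.0448), a call that ended in 8 of 15 alternatives, among them leaving out any single library except Aa-cko replicate 2 (highest adjusted p = 0.17, without Aa-cko replicate 1). Itga3, a laminin receptor chain, did not pass (log2 -0.27, adjusted p = 0.146).

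Genes of integrin activation and adhesion were listed without sorting those that promote binding from those that restrain it. Of 28 tested, 3 rose (10.7%), 5 fell (17.9%) and 20 did not pass, with a median of 0.03. Both shares lie below those over all tested genes (19.2% and 23.2%). Rasgrp1, an exchange factor that activates Ras downstream of the T cell receptor, fell from 29.6, 26.0 and 36.6 to 12.0, 10.6 and 13.8 FPKM (log2 -1.26 ± 0.15, limma adjusted p = 0.000207). Rap1a, a small GTPase that turns integrins on, fell by 0.76 ± 0.12 and Rassf5, the Rap effector RAPL that binds LFA-1, by 0.74 ± 0.11, each with no overlap of groups. Cyth1, the gene of cytohesin-1, which binds the tail of the Itgb2 chain, rose from 28.7, 26.2 and 28.9 to 54.1, 49.0 and 54.9 FPKM (log2 0.89 ± 0.10, adjusted p = 0.000155), and Skap2, an adaptor in myeloid integrin signalling, rose by log2 0.51 ± 0.10. The core activators Tln1, the talin that binds beta tails, and Fermt3, the kindlin of leukocytes, chosen after their values were seen, did not pass (log2 -0.19 and -0.02). The number of this list that rose went to 7 under upper quartile scaling and to 6 under median scaling and without Aa-cko replicates 2 or 3.

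**Figure D5:**
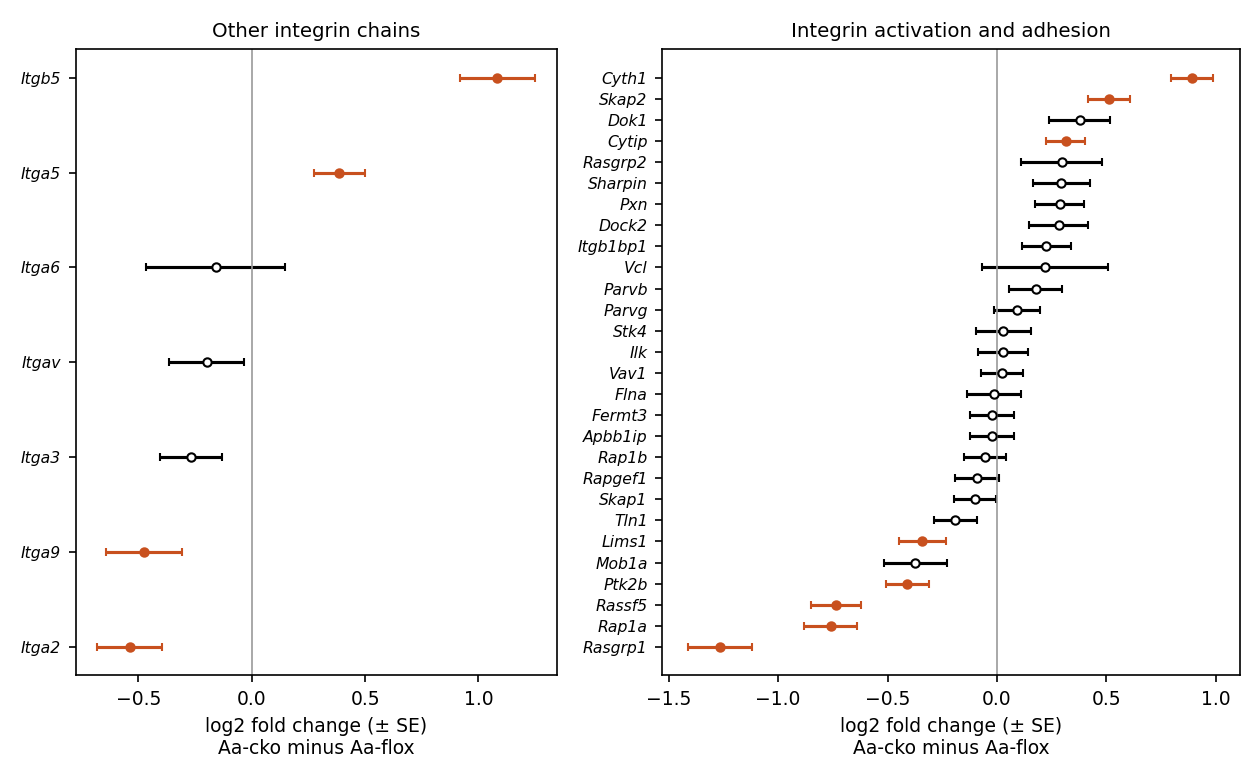
Log2 fold changes with standard errors of the tested genes among the other integrin chains (left) and the genes of integrin activation and adhesion (right), ordered by size, filled where called. On the left Itgb5 stands apart at 1.08, and on the right the values run from -1.26 for Rasgrp1 to 0.89 for Cyth1 with most near 0.

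Ligands of these integrins included several rises. Of 16 tested ligand genes 6 rose (37.5%), 2 fell (12.5%) and 8 did not pass, with a median of 0.23. Over all tested genes 19.2% rose and 23.2% fell. Fn1, fibronectin, rose from 86.7, 96.4 and 88.9 to 201, 193 and 225 FPKM (log2 1.18 ± 0.10, limma adjusted p = 4.92e-05). Cdh1, the E-cadherin that the Itgae and Itgb7 pair binds, rose from 3.27, 3.53 and 4.25 to 7.69, 7.12 and 9.25 FPKM (log2 0.95 ± 0.14). Of the 10 epithelial markers, Cdh1 among them, 3 rose, 1 fell and 6 did not pass. C3, the complement gene whose fragment Itgam and Itgax bind, rose by log2 0.84 ± 0.17, F11r, a junctional ligand of LFA-1, by 0.68 ± 0.13 and Mfge8, a ligand of the Itgav and Itgb3 pair, by 0.65 ± 0.14. The 2 that fell, named after their values were seen, were Icam1 (log2 -0.51, adjusted p = 0.0108) and Icam2 (log2 -0.45, adjusted p = 0.0304), both ligands of LFA-1. The number that fell was 1 or 0 under 7 alternatives: 1 under upper quartile and median scaling, with no filter and without Aa-flox replicates 1 or 3 or Aa-cko replicate 2, and 0 without Aa-cko replicate 1.

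Among genes of tissue residency and TGF-beta signalling, which controls Itgae in T cells, 5 of 21 tested (23.8%) rose and 6 (28.6%) fell, with a median of 0.10. These shares are near those over all tested genes (19.2% and 23.2%), and under median scaling 3 fell. The largest changes were in S1pr1, the receptor by which lymphocytes leave tissue (log2 3.21), Klf2, its transcriptional activator (2.29), and Cd69, which opposes it (-2.42). Cbfb, the common partner of RUNX factors, fell from 67.8, 73.4 and 92.1 to 36.9, 35.1 and 43.0 FPKM (log2 -0.996 ± 0.13, limma adjusted p = 0.000388), and Hic1, a repressor found in intestinal resident lymphocytes, fell by 0.68 ± 0.13. Itgae rose beside these falls of Cd69 and Hic1, which are named with it as residency genes. Others of the list, chosen after their values were seen, went both ways. Prdm1 rose (log2 0.83, limma adjusted p = 0.00343) and Cxcr6 fell (log2 -0.40, limma adjusted p = 0.00833). Runx3, a factor that controls Itgae in T cells, chosen after its values were seen, rose from 12.4 ± 0.222 to 18.9 ± 3.57 FPKM (log2 0.55, adjusted p = 0.0116). The TGF-beta genes of the list, also named after their values were seen, did not rise past the test. Tgfb1 (log2 -0.49, limma adjusted p = 0.0101) and Smad3 (log2 -0.40, limma adjusted p = 0.0375) fell. Tgfbr1, Tgfbr2, Tgfbr3, Ski and Skil did not pass.

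Other adhesion and homing molecules were likewise divided, with 7 higher (38.9%), 5 lower (27.8%) and 6 not past of 18 tested (median 0.09). The shares over all tested genes were 19.2% and 23.2%. Ccr9, the chemokine receptor that acts with Itga4 and Itgb7 in homing to the small intestine, fell from 65.0, 66.1 and 96.7 to 12.3, 12.4 and 14.9 FPKM (log2 -2.42 ± 0.16), opposite to Itgb7. Ccr7, which guides cells to lymph nodes, rose from 106 ± 6.42 to 213 ± 9.84 FPKM (log2 0.996 ± 0.10). Cd6, a T cell receptor for ALCAM, fell by 1.48 ± 0.13 and Spn, the sialomucin CD43, by 0.60 ± 0.10. The largest adjusted p among these 4 was 0.00105, for Spn.

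Over the 6 libraries, the genes most like Itgae by Pearson correlation of log2(FPKM + 1) were Tap2 (r = 0.998), Ets2 (0.995), Zfand2a (0.993) and Dusp1 (0.993), and those most like Itgax were Slc38a7, Lhfpl2, Emb and P2ry13 (each r = 0.998). With 6 points in 2 groups such values are common, and 292 of 7707 genes with a mean of at least 5 FPKM reached 0.95 with Itgae and 538 with Itgax.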

How the data were processed

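The deposited table holds FPKM values computed by the authors, per the file headers, for 6 libraries, with Ensembl identifiers and symbols. The submitters' processing notes name mm10 as genome build. Which aligner, quantifier and gene models were used is not given in the sources used here. Gene positions and exon lengths come from GENCODE M21 on the same assembly and promoters from RefSeq (GRCm38.p6).

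A gene was tested if 3 or more libraries reached 1 FPKM, and limma 3.58.1 (R 4.3.3) compared the groups on log2(FPKM + 1), using trended, robust variances and no covariate. P-values were adjusted by Benjamini-Hochberg over all 10849 genes. Fold changes are Aa-cko minus Aa-flox on this scale, where changes of low genes come out too small. Errors are SDs of values or SEs of fold changes. Chain ratios were compared with an exact two-sided permutation test.

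Depth was read from the steps of low values with GENCODE exon lengths. At the depths found, 46.0 to 49.6% of held-out low values were whole within 0.1 fragment, against 20% by chance, so whole reads were not recovered, no count test was run, and depths are approximate.

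On data simulated for this comparison (10726 genes), 77% of 100 genes with a 1.5-fold change were recovered and 100% of 50 changed 2-fold and of 50 changed 4-fold, and 9 of 186 calls were false. The simulation gave all genes the same spread setting and changed far fewer genes than the 42.4% called here. Its shares may not carry over to these data. The members and lists were chosen with earlier results of these data known. Named genes are all members, Ptprc, up to 5 tested genes with the smallest p in each list, and for Itgae and Itgax the 4 most correlated genes. Stk11, Sftpc, Scgb1a1, Xcr1, Batf3, Itgav, Itgad, Itga2b, Runx3, Tln1, Fermt3, Icam1, Icam2 and others outside these are named after their values were seen. Fyb of the activation list is not analysed here, and 1 gene of the homing list that the rule names is not reported here.

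Alternatives covered scaling, pseudocounts, filters, the variance model, the threshold, a replicate block and the removal of each library in turn. Python 3.11.15, pandas 2.3.3 and matplotlib 3.10.9 were used.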

Additional observations from a re-analysis of the deposited data

How the results depend on the processing

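The 9 tested chains kept their direction under all 16 alternatives of scaling, pseudocount, filter, variance model, block and left-out library. Filter, variance model and block leave a fold change as it is, so there the direction was fixed in advance. On the threshold, 135 of 144 results kept their side. Itgae, Itgb7, Itgax and Itgb3 passed in each, Itgal in 0. Itgam and Itgb2 lost their call once each, and Itga4 and Itgb1 gained one 3 and 4 times. Between 5 and 8 chains were called higher with a library left out, 5 with equal sums or an adjusted p under 0.01, 7 with upper quartile scaling and 8 with median scaling.

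Over all tested genes, 2087 higher (45.3% of calls) and 2515 lower became 1269 and 1479 at an adjusted p under 0.01, and the higher part became 55.6% with upper quartile and 56.5% with median scaling. With a library left out, 1443 to 2022 were higher and 1795 to 2734 lower, and in the 5 fixed lists 18 to 27 and 15 to 22. The 4 ratios of lymphoid to myeloid chains kept their direction over 8 alternatives, of which the replicate block gives the main value by construction. The log2 difference ran from -0.998 to -0.892 for Itgal/Itgax and from -0.55 to -0.27 for Itgal/Itgam. It ran from -0.49 to -0.34 for Itgae/Itgax and from 0.06 to 0.52 for Itgb7/Itgam.

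Same-numbered libraries deviated together unevenly (correlations of deviations from group means -0.02, 0.19 and 0.52 for numbers 1, 2 and 3), and Aa-cko replicate 2 correlated best with Aa-flox replicate 1 (0.365), so the numbers were not taken to pair samples. With the replicate block 2451 genes were higher and 3058 lower, and 8 chains were higher, Itga4 (adjusted p = 0.0313) and Itgb1 (0.0295) among them, as were 6 genes of integrin activation. Itga1, whose values rest on the fewest fragments of the 10 chains, was left untested by the filter of 1 FPKM.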
